A study of Homo sapiens with 6 samples.

Results

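Purine and pyrimidine nucleotides are built from small precursors or recovered from bases and nucleosides, and the 36 genes described here encode enzymes of these routes. They were taken by symbol from a fixed list and matched to 36 Ensembl gene IDs of 60671 in the count files. All 36 passed the filter on low counts, as did 20734 genes in all. The cells were NCI-H69, an established line of small cell lung cancer, labelled wild type. RNA of 3 libraries from cells given DMSO, the vehicle, was compared with that of 3 libraries from cells given 20 µM GNF5 for 48 h. GNF5 is an allosteric inhibitor of the ABL kinases that occupies their myristate pocket. The labels state the dose as micromolar for each sample but as millimolar in the protocol. The title of the series concerns conflicts between transcription and replication and weakened replication forks under ABL inactivation. Whether the libraries of a group came from separate cultures is not stated. The p-values therefore reflect the spread among these 6 libraries, which may be technical only. All results are from 1 cell line.

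De novo synthesis assembles the purine ring step by step on phosphoribosyl pyrophosphate (PRPP) until inosine monophosphate (IMP) is reached, and then branches to AMP and GMP. The pyrimidine ring is made before it is joined to PRPP, giving UMP and then CTP. Salvage enzymes return free bases and nucleosides to the nucleotide pool. Deoxynucleotides for DNA are made by ribonucleotide reductase, which converts ribonucleoside diphosphates, and thymidylate is made from dUMP. Several of the deoxynucleotide genes are known to be transcribed mainly in late G1 and S phase, and nucleotide synthesis is a known target of drugs against cancer.

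Total counts ran from 46148701 to 60697602 per library, and the lowest count of any of the 36 genes in any library was 257. The main axis of variation held 74.7% of the variance of log2 levels. Levels are in CPM, counts per 1000000 counts after normalisation of library size. All 9 neuroendocrine markers of this cancer were well expressed, among them INSM1 at 1403 ± 34.0 CPM with DMSO and 1464 ± 45.8 CPM with GNF5 (SD, n = 3 libraries) and CHGA at 247 ± 3.77 CPM with DMSO and 254 ± 17.2 CPM with GNF5. By the edgeR test used below 4 of the 9 rose, 2 fell and 3, with INSM1 and CHGA among them, were not called, with log2 fold changes from -1.24 for GRP to 0.64. NCAM1 (0.59 ± 0.0318) and CHGB (0.32 ± 0.0329) were among those that rose, and SYP (-0.27 ± 0.0379) was the other that fell. Of 7 leukocyte markers 6 lay under 1 CPM on average and CD3E had 0 counts, and the sum of the list was 4.64 to 4.98 CPM with DMSO and 3.24 to 4.07 with GNF5. Of 5 erythroid markers 5 lay under 1 CPM, of 6 lung epithelium markers 4, and of 7 fibroblast markers 3. COL1A2 held most of the fibroblast sum, at 119 ± 2.60 CPM with DMSO and 63.5 ± 3.61 CPM with GNF5, and COL3A1 had 0 counts. The summed fibroblast markers were 129 to 134 CPM with DMSO and 69.3 to 77.2 CPM with GNF5, and the lung epithelium markers, with SFTPB at 0 counts, 8.39 to 9.03 CPM with DMSO and 3.24 to 3.78 CPM with GNF5. The part of these markers in the results was not tested.

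With GNF5, most of the enzymes that make deoxynucleotides and the cytosolic thymidine kinase were lower, the enzymes that turn IMP into AMP and GMP were higher, and the other steps of de novo synthesis went in both directions. RRM2, the S phase subunit of ribonucleotide reductase, fell 3.10-fold, and TK1, that thymidine kinase, fell 2.63-fold. Among 16 de novo genes 11 rose and 4 fell, with a median log2 fold change of 0.17. The count of 11 became 8 with scaling by the upper quartile, and also 8 without DMSO replicate 3. Among 7 salvage genes 1 rose and 6 fell (median -0.16), and among 7 deoxynucleotide genes 1 rose and 5 fell (median -0.55). Of all genes tested 31.0% rose and 30.7% fell, with a median of 0.0057. Fold changes compare GNF5 with DMSO, are followed by their standard error, and count as a rise or a fall where edgeR's quasi-likelihood test gave an adjusted p under 0.05 over all genes tested. In bulk RNA a lower share of cells that express a gene and less of its RNA per cell cannot be told apart.

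Most of these changes were small, and a large part of the transcriptome moved as well. Of the 36 genes 33 were called (91.7%), against 61.6% of all genes tested. They are well expressed genes, with a median log2 CPM of 6.24 against 3.41 over all genes tested. Within their range of levels, a log2 CPM of 2.45 to 8.27, 75.1% of 11390 genes were called. Levels were not matched within that range. In detail, 13 of the 36 rose and 20 fell, where the shares over all genes were 31.0% and 30.7%. The 3 values of one group lay wholly on one side of those of the other for 32 of the 36, against 65.9% of all genes. With a change of at least 1.5-fold asked for as well, 5 of the 36 remained (13.9%). This is no larger a share than the 24.2% of all genes or the 16.1% of genes within that range of levels. Of these 5, ADSS1 rose, where 11.2% of all genes did, and RRM2, TK1, RRM1 and DTYMK fell, where 12.9% of all genes did.

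**Figure D1:**
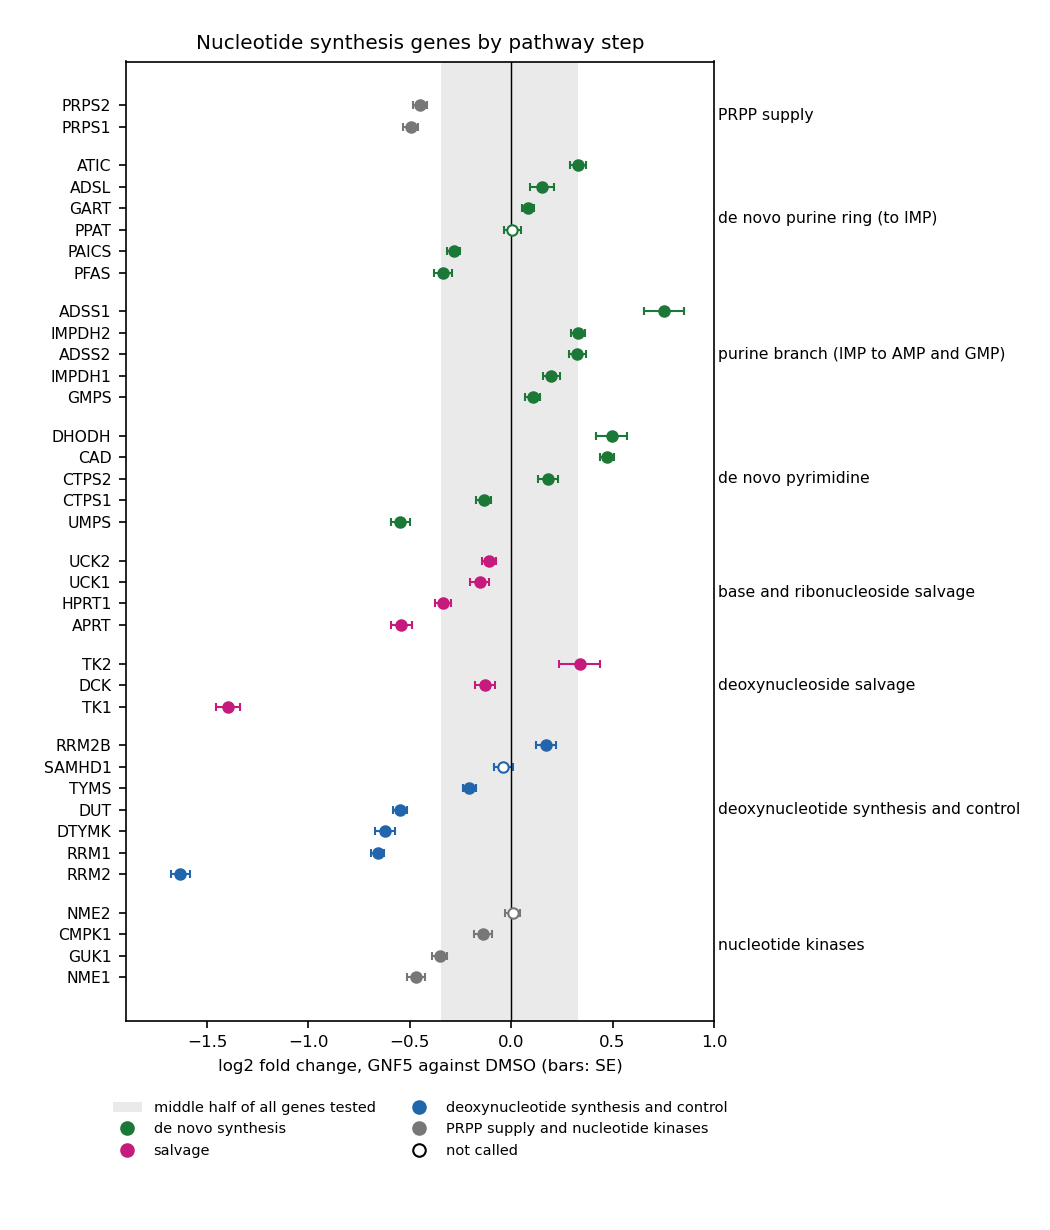
Log2 fold change of each of the 36 genes, GNF5 against DMSO, with its standard error, grouped by pathway step. Filled points passed the test, open points (PPAT, SAMHD1 and NME2) did not, and the grey band holds the middle part of all genes tested, from -0.35 to 0.33. RRM2 at -1.63 and TK1 at -1.40 lie far below the rest, and all 5 genes of the purine branch lie above 0.

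Ribonucleotide reductase holds a large subunit, RRM1, and a small subunit that carries the radical, either RRM2 or RRM2B. RRM2 (ENSG00000171848, chromosome 2, 10120698 to 10211725, plus strand, GRCh38) had 192, 189 and 180.5 CPM in the DMSO libraries and 54.9, 64.6 and 61.9 CPM in the GNF5 libraries. Every GNF5 value lay below every DMSO value (log2 fold change -1.63 ± 0.0453, adjusted p = 1.18e-20). RRM1 (ENSG00000167325, chromosome 11, 4094707 to 4138932, plus strand), the partner that both small subunits share, had 322, 318 and 310.2 CPM in the DMSO libraries and 199, 199 and 204 CPM in the GNF5 libraries. It fell as well but by less, 1.58-fold (log2 fold change -0.66 ± 0.0321, adjusted p = 1.52e-16). RRM2B, the small subunit known to be induced by p53 and to serve DNA repair and mitochondrial DNA outside S phase, had 33.8, 33.2 and 35.4 CPM in the DMSO libraries and 40.8, 37.0 and 37.5 CPM in the GNF5 libraries. The GNF5 libraries were the higher ones, and it was the sole deoxynucleotide gene that rose (log2 fold change 0.17 ± 0.0491, adjusted p = 0.00337).

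The enzymes of thymidylate supply fell by unequal amounts. TYMS, thymidylate synthase, methylates dUMP and is the target of fluorouracil. It had 238, 234 and 237 CPM in the DMSO libraries and 203, 207 and 204 CPM in the GNF5 libraries, a narrow gap without overlap (log2 fold change -0.21 ± 0.0317, adjusted p = 2.00e-06). DTYMK (ENSG00000168393, chromosome 2, 241675747 to 241686944, minus strand) phosphorylates dTMP. It had 58.8, 52.6 and 54.7 CPM in the DMSO libraries and 34.3, 38.2 and 35.5 CPM in the GNF5 libraries. DTYMK fell 1.54-fold (log2 fold change -0.62 ± 0.0496, adjusted p = 8.85e-12). This fall did not pass when edgeR tested it against a change of 1.5-fold rather than against no change (adjusted p = 0.415). DUT, the dUTPase that keeps uracil out of DNA and supplies dUMP, fell from 184 ± 6.61 to 126 ± 3.50 CPM (SD, n = 3 libraries; edgeR log2 fold change -0.55 ± 0.0359, adjusted p = 1.22e-13), just short of a 1.5-fold change. DUT has 8 annotated pseudogenes by name, which can take part of its reads. The same limit holds for others of the 36 genes. Among them are PAICS with 7, RRM2, HPRT1 and NME2 with 3 each, and TYMS, PPAT and PRPS1 with 2 each. SAMHD1, a triphosphatase that degrades deoxynucleotides, had 35.3, 37.0 and 34.7 CPM in the DMSO libraries and 34.1, 34.2 and 35.7 CPM in the GNF5 libraries. These groups overlapped, and no change was detected (log2 fold change -0.04 ± 0.0470, adjusted p = 0.473, approximate 95% interval -0.13 to 0.05).

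Markers of S phase and division were mostly lower as well. Of 24 such markers 23 fell and 0 rose, 16 of them by at least 1.5-fold, with a median log2 fold change of -0.84. Of all genes tested 30.7% fell, and 12.9% fell by at least 1.5-fold. The markers were uneven. The replication genes MCM2 to MCM7 (log2 fold change -0.43 to -0.15) and CDC6 (-0.31) fell by less than 1.5-fold, while the cyclin gene CCNB1 fell most (-1.31). Their summed level was 4958 to 5033 CPM in the DMSO libraries and 3259 to 3353 CPM in the GNF5 libraries. The remaining marker, CDT1, was not called (log2 fold change 0.09 ± 0.0407). The part of these markers in the fall of the deoxynucleotide genes was not tested.

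**Figure D2:**
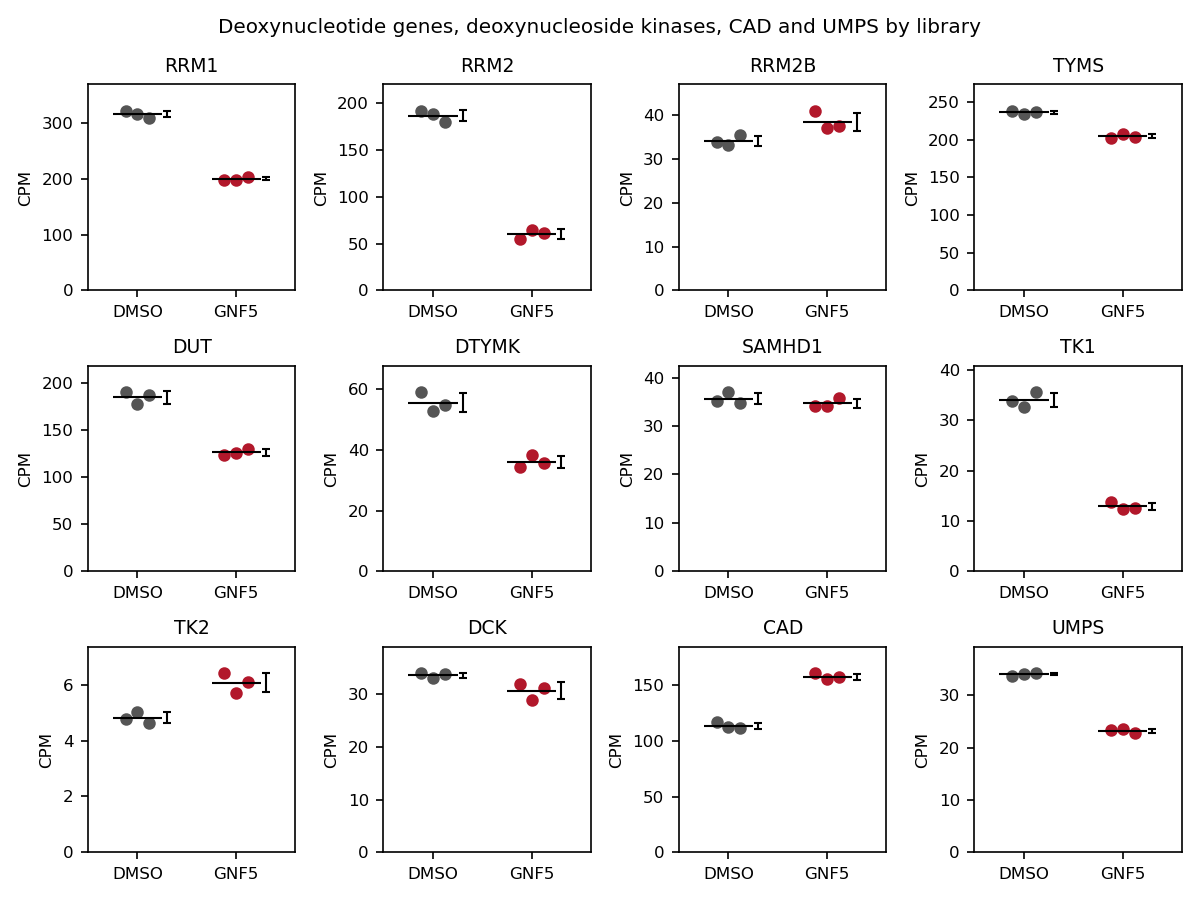
Level of 12 genes in each library, in CPM from 0, with points for the 3 libraries of a group, a line at their mean and a bar of 1 SD beside it. RRM2, TK1, RRM1, DTYMK, DUT and UMPS were lower in every GNF5 library than in every DMSO library, RRM2B, TK2 and CAD were higher in every one, and the groups of SAMHD1 overlapped.

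The 4 genes that fell by at least 1.5-fold, with TK1 among them, all hold the letters CCAAT on one strand or the other in the window from 250 bases before to 50 bases after a RefSeq start (GRCh38.p14). The words searched on both strands were CCAAT; the E2F words TTTCCCGC, TTTGGCGC, TTTCGCGC and TTTGCCGC; the cell cycle element TTTGAA, also called CHR; the E-box CACGTG; and TGATGNAA, the element bound by ATF4. A gene counted where any of its windows held the letters. Of the 36 genes 33 had a window, and IMPDH2, ADSL and RRM2B did not. CCAAT was found in 11 of the 33, or 33.3%, against 39.7% of all 27305 genes in the table. Below are the bases just upstream of the start with the most matches in each of the 4, from 5′ to 3′ along the gene, with CCAAT or its complement ATTGG in capitals. They are printed because these genes fell most, and were chosen after their values were seen.
TK1, chr17:78187053-78187172, minus strand: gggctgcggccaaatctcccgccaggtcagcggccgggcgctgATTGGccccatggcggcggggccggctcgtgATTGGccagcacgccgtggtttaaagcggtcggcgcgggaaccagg
RRM1, chr11:4094565-4094684, plus strand: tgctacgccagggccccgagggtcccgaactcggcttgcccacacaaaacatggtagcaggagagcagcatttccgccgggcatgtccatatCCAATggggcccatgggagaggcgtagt
RRM2, chr2:10122606-10122738, plus strand: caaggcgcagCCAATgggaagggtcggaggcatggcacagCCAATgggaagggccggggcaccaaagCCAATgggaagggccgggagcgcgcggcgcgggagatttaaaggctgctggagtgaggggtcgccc
DTYMK, chr2:241686816-241686935, minus strand: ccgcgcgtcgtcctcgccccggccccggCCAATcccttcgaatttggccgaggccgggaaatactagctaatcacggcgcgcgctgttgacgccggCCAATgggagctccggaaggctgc
In the stretches shown, RRM2 holds 3 copies of CCAAT, 123 to 66 bases before that start. TK1 and DTYMK hold 2 each, and RRM1 holds 1. A further CCAAT lies 249 bases before another RefSeq start of RRM2 (10122568). The same letters also lie in the windows of genes that rose (CAD, DHODH and GART) and of SAMHD1.

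E2F words were found in 5 of the 33 genes (15.2%, against 3.99% of all genes in the table), namely DUT, TYMS, DCK, PRPS2 and GART. None of these 5 was among the genes that fell most, and GART was slightly higher with GNF5. The stretches before the starts of TYMS and DUT are shown because both are deoxynucleotide genes that fell, with the E2F words, read on either strand, in capitals.
TYMS, chr18:657533-657652, plus strand: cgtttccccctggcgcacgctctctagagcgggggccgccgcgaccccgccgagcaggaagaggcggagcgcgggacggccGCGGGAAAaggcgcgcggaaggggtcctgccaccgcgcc
DUT, chr15:48332077-48332196, plus strand: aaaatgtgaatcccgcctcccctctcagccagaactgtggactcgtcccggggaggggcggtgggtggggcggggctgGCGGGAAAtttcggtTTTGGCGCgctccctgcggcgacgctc
DUT carries 2 such words, 42 and 27 bases before its start, and TYMS carries 1, 39 bases before. The word TTTGAA was found in 4 of the 33 (ADSS2, DUT, RRM1 and UMPS; 12.1% against 18.2%), and TGATGNAA in 0 against 4.46%. A match of letters is not a bound site. Only exact matches to the listed words were counted, so a gene without a match may still hold a variant of an element.

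Salvage of deoxynucleosides was split between its thymidine kinases. TK1 (ENSG00000167900, chromosome 17, 78174091 to 78187233, minus strand), the cytosolic enzyme that cycling cells use, had 33.9, 32.7 and 35.5 CPM in the DMSO libraries and 13.7, 12.3 and 12.7 CPM in the GNF5 libraries, so that the highest GNF5 value was below every DMSO value (log2 fold change -1.40 ± 0.0581, adjusted p = 4.34e-18). TK2, the mitochondrial thymidine kinase, was low, with 4.78, 5.03 and 4.63 CPM in the DMSO libraries and 6.40, 5.71 and 6.11 CPM in the GNF5 libraries. It rose by 0.34 ± 0.10 (log2, adjusted p = 0.00465), with no overlap of the groups. DCK, deoxycytidine kinase, which also activates drugs such as cytarabine and gemcitabine, had 33.5 ± 0.497 CPM with DMSO and 30.6 ± 1.59 CPM with GNF5 (SD, n = 3 libraries). Its small fall (edgeR log2 fold change -0.13 ± 0.0495, adjusted p = 0.0263) did not pass once DMSO replicate 1 (adjusted p = 0.0613), DMSO replicate 3 (0.0595) or GNF5 replicate 2 (0.175) was left out.

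All 4 genes for salvage of bases and ribonucleosides fell, each by less than 1.5-fold, where 30.7% of all genes tested fell. HPRT1, which returns hypoxanthine and guanine to the nucleotide pool, had 90.5, 87.1 and 92.5 CPM in the DMSO libraries and 71.5, 69.7 and 72.5 CPM in the GNF5 libraries. The ranges were well apart (log2 fold change -0.34 ± 0.0386, adjusted p = 1.24e-08). APRT, the corresponding enzyme for adenine, fell most of the 4 (log2 fold change -0.54 ± 0.0507). The uridine-cytidine kinases changed least. UCK2 had 143, 147 and 143 CPM in the DMSO libraries and 134, 136 and 132 CPM in the GNF5 libraries, with every GNF5 library slightly below every DMSO library (log2 fold change -0.11 ± 0.0337). UCK1 had 67.4, 59.0 and 62.4 CPM in the DMSO libraries and 55.6, 59.2 and 54.7 CPM in the GNF5 libraries, and the groups overlapped through DMSO replicate 2 and GNF5 replicate 2. Its call (log2 fold change -0.16 ± 0.0470, adjusted p = 0.00529) was lost without DMSO replicate 1 (adjusted p = 0.0566).

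PRPP, the sugar phosphate that purine and pyrimidine synthesis and the salvage of purine bases all consume, is made by PRPS1 and PRPS2. Both fell. PRPS1 had 123, 123 and 127 CPM in the DMSO libraries and 85.7, 88.2 and 90.8 CPM in the GNF5 libraries (log2 fold change -0.50 ± 0.0364). PRPS2 had 107, 104 and 105 CPM in the DMSO libraries and 78.7, 77.0 and 75.7 CPM in the GNF5 libraries (log2 fold change -0.45 ± 0.0365). In both genes each GNF5 library was below each DMSO library.

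The 6 genes that build the purine ring went both ways, with 3 higher, 2 lower and 1 not called. PPAT, the amidotransferase that commits PRPP to purines, had 85.0, 94.7 and 89.2 CPM in the DMSO libraries and 94.1, 88.7 and 86.9 CPM in the GNF5 libraries. The ranges overlapped, and no change was detected (log2 fold change 0.00 ± 0.0419, adjusted p = 0.933, approximate 95% interval -0.08 to 0.09). GART, an enzyme with several steps of the route in a single chain, rose by a small amount (log2 fold change 0.08 ± 0.0312, adjusted p = 0.0220). With scaling by the upper quartile GART no longer passed (adjusted p = 0.108). The same held on leaving out DMSO replicate 2 (adjusted p = 0.0767), DMSO replicate 3 (0.0966) or GNF5 replicate 3 (0.0531). PFAS, which acts between steps of GART, fell by 0.34 ± 0.0434 on the log2 scale. PAICS, which follows, had 335, 344 and 339 CPM in the DMSO libraries and 284, 272 and 281 CPM in the GNF5 libraries and fell (log2 fold change -0.28 ± 0.0319), with every GNF5 library below every DMSO library.

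The later steps of the ring were higher. ATIC, the bifunctional enzyme that closes the ring and yields IMP, rose by 0.33 ± 0.0406, from 62.4 ± 1.75 to 78.4 ± 2.77 CPM. ADSL, which releases fumarate both in the ring and on the way to AMP, had 22.2 ± 0.117 CPM with DMSO and 24.6 ± 1.99 CPM with GNF5. Its call (log2 fold change 0.15 ± 0.0581, adjusted p = 0.0252) was lost with DESeq2 (adjusted p = 0.0765), with upper-quartile scaling (0.061) and without any library but GNF5 replicate 3 (adjusted p from 0.0574 to 0.157). The exons of ADSL share 12% of their bases with another gene model on the same strand, where reads are not counted, so its level is uncertain.

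PPAT and PAICS are neighbours on chromosome 4 that are transcribed away from each other, with 125 bases between their annotated starts. PAICS fell, and no change was detected in PPAT. The ratio of PPAT to PAICS per kilobase of exon was 0.350, 0.381 and 0.363 with DMSO and 0.459, 0.451 and 0.427 with GNF5, with no overlap, a comparison chosen after the values were seen and not tested. The stretch between the starts is shown because both genes share it, read along PPAT.
PPAT-PAICS, chr4:56435616-56435740, minus strand: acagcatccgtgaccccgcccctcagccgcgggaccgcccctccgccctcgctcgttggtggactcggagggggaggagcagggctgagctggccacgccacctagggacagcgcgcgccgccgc
None of the words searched lies in it. An E-box, CACGTG, lies 182 bases before the start of PPAT, which is 41 bases into PAICS counted from its RefSeq start (56435752). That start differs from the annotated start of PAICS that bounds the stretch above. E-boxes were found in 6 of the 33 genes (ATIC, DCK, DHODH, NME1, PAICS and PPAT; 18.2% against 8.77% of all genes in the table), with PPAT and PAICS sharing this 1 site.

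The branch from IMP to AMP and GMP was higher at each of its 5 genes, by less than 1.5-fold at all but ADSS1. Of all genes tested 31.0% rose. The changes of GMPS, IMPDH1 and ADSS2 lay within the middle part of all genes tested (log2 -0.35 to 0.33), and that of IMPDH2 at its edge. IMPDH2, the main form of IMP dehydrogenase in dividing cells and the target of mycophenolate, had 145, 142 and 149 CPM in the DMSO libraries and 185, 185 and 178 CPM in the GNF5 libraries. No values overlapped (log2 fold change 0.33 ± 0.0342, adjusted p = 2.07e-09). IMPDH1, its second form, had 52.9, 52.4 and 53.3 CPM in the DMSO libraries and 60.6, 60.3 and 61.1 CPM in the GNF5 libraries and rose by 0.20 ± 0.0404. IMPDH1 has 10 annotated pseudogenes by name. GMPS, which makes GMP, rose by 0.11 ± 0.0379 (adjusted p = 0.0164), a call lost with upper-quartile scaling (adjusted p = 0.0611) and without DMSO replicate 3 (0.0764) or GNF5 replicate 1 (0.145).

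Adenylosuccinate synthase, the first enzyme on the way to AMP, has a general form, ADSS2, and a form known from muscle, ADSS1. ADSS2 had 79.6, 80.9 and 79.8 CPM in the DMSO libraries and 107, 95.5 and 98.4 CPM in the GNF5 libraries, higher in every GNF5 library (log2 fold change 0.33 ± 0.0408). ADSS1 (ENSG00000185100, chromosome 14, 104724229 to 104747325, plus strand) had 4.83, 4.25 and 5.24 CPM in the DMSO libraries and 8.09, 8.28 and 7.75 CPM in the GNF5 libraries. It showed the largest rise of the 36 genes, 1.68-fold (log2 fold change 0.75 ± 0.0981, adjusted p = 1.35e-07), from a low level. Tested against a change of 1.5-fold rather than against no change, its rise did not pass (adjusted p = 0.0931). ADSS2 shares 4.56% of its exon bases with another gene model.

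De novo pyrimidine synthesis had its early enzymes higher and UMPS lower. CAD, the large protein with the opening 3 activities of the route, had 117, 113 and 112 CPM in the DMSO libraries and 161, 156 and 157 CPM in the GNF5 libraries. Every GNF5 value was above every DMSO value (log2 fold change 0.47 ± 0.0345, adjusted p = 1.35e-12). DHODH, the mitochondrial dehydrogenase that follows, rose from 10.3 ± 0.154 to 14.5 ± 1.28 CPM (log2 fold change 0.50 ± 0.0757). UMPS, which makes UMP, fell from 33.9 ± 0.204 to 23.2 ± 0.379 CPM (log2 fold change -0.55 ± 0.0487). It was the de novo gene with the largest fall.

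CTP synthase, which aminates UTP, has 2 genes that moved in opposite directions. CTPS1, the form known to be needed by proliferating lymphocytes, had 127, 125 and 124 CPM in the DMSO libraries and 111, 116 and 115 CPM in the GNF5 libraries and fell (log2 fold change -0.14 ± 0.0350). CTPS2 had 34.3, 32.8 and 32.6 CPM in the DMSO libraries and 39.6, 37.4 and 35.9 CPM in the GNF5 libraries and rose (log2 fold change 0.18 ± 0.0486). Neither pair of groups overlapped.

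Of the 4 kinases that phosphorylate nucleotides, 3 fell and 1 was not called. GUK1, guanylate kinase, and CMPK1, UMP-CMP kinase, fell by 0.35 ± 0.0371 and 0.14 ± 0.0421 on the log2 scale. NME1 and NME2 encode subunits of the nucleoside diphosphate kinase that makes triphosphates, and lie side by side on chromosome 17. NME1 had 79.7, 76.1 and 72.7 CPM in the DMSO libraries and 52.5, 57.6 and 54.9 CPM in the GNF5 libraries and fell (log2 fold change -0.47 ± 0.0440). NME2 had 101.2, 93.9 and 98.4 CPM in the DMSO libraries and 97.4, 98.6 and 99.2 CPM in the GNF5 libraries, with overlap and no detected change (log2 fold change 0.01 ± 0.0372, adjusted p = 0.865, approximate 95% interval -0.06 to 0.08). A read-through gene model, NME1-NME2, covers 18.7% of the exon bases of NME1 and 24.2% of those of NME2, and reads there are not counted for either. That model itself held only 131 to 231 counts per library, and the closeness of the genes in sequence adds further uncertainty to both levels.

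The balance between members that do the same step was compared in 8 pairs, as a ratio per kilobase of exon in each library. RRM2 to RRM2B was 3.34, 3.35 and 3.00 with DMSO and 0.793, 1.03 and 0.972 with GNF5. With GNF5 the levels of these subunits were close to equal on this scale, and the ratio was 3.49-fold lower. TK1 to TK2 was 27.5, 25.3 and 29.8 with DMSO and 8.33, 8.39 and 8.05 with GNF5, a 3.33-fold fall in a ratio that stayed above 1. NME1 to NME2 was 0.575, 0.592 and 0.540 with DMSO and 0.394, 0.427 and 0.405 with GNF5. CTPS1 to CTPS2 was 1.83, 1.88 and 1.89 with DMSO and 1.38, 1.53 and 1.59 with GNF5. Both of these ratios were lower in every GNF5 library. ADSS2 to ADSS1 was 27.4, 31.7 and 25.4 with DMSO and 22.1, 19.2 and 21.1 with GNF5, a 1.35-fold fall without overlap. IMPDH2 to IMPDH1 was 3.61, 3.58 and 3.70 with DMSO and 4.04, 4.05 and 3.85 with GNF5, the sole ratio with separate groups that was higher with GNF5.

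Groups were separate for 6 of the 8 ratios, with an exact two-sided permutation p of 0.1, the smallest that 3 libraries against 3 allow, or 0.133 after Benjamini-Hochberg adjustment over the 8. For single genes, groups were separate in 65.9% of all genes tested. The pairs were chosen with earlier results of these data known, so the p-values are given as description only. PRPS1 to PRPS2 was 0.938, 0.960 and 0.982 with DMSO and 0.886, 0.932 and 0.975 with GNF5 (exact permutation p = 0.4), and UCK2 to UCK1 was 0.817, 0.957 and 0.882 with DMSO and 0.927, 0.880 and 0.928 with GNF5 (exact permutation p = 0.7). In these the groups overlapped. The ratios rest on the summed length of all annotated exons, which for RRM2 is 9155 bases and includes exons of rare transcripts, so their absolute size is uncertain, while their change between groups is not affected by length.

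**Figure D3:**
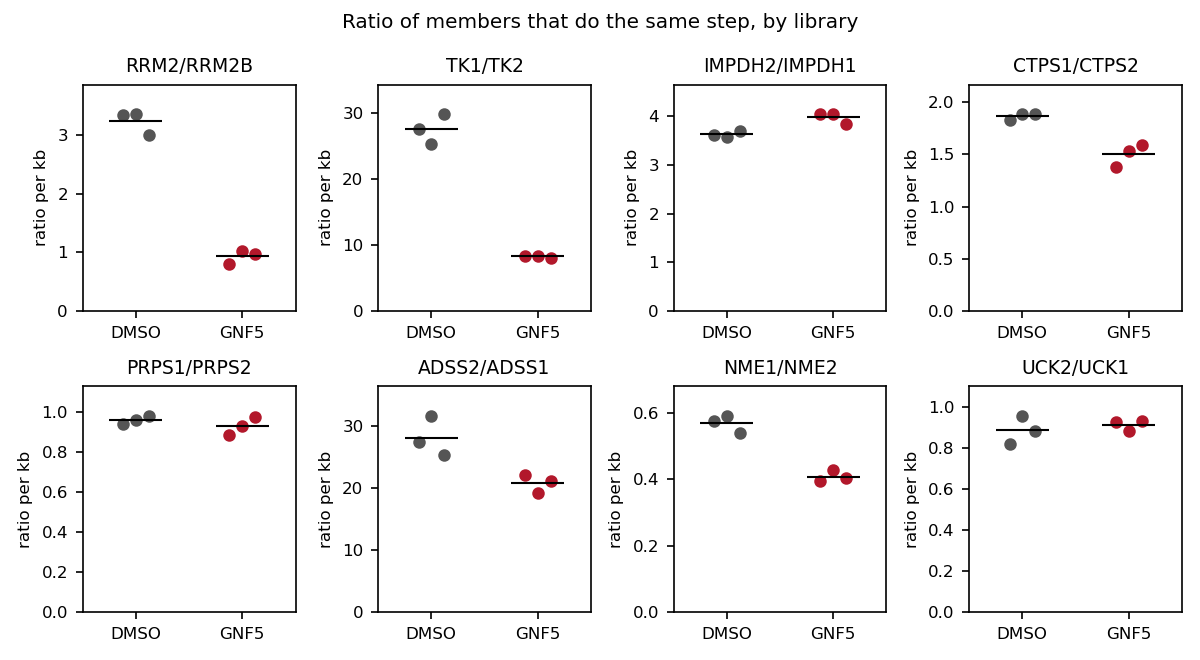
Ratio of 2 members that do the same step, per kilobase of exon, in each library, with a line at the mean of the 3 libraries and axes from 0. The RRM2/RRM2B ratio fell from a mean of 3.23 to 0.931 and the TK1/TK2 ratio from 27.5 to 8.26, while PRPS1/PRPS2 and UCK2/UCK1 overlapped between groups.

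Levels differed widely between the 36 genes. In CPM per kilobase of exon, TYMS was the highest (97.6 with DMSO and 84.6 with GNF5), and TK2 the lowest (0.671 with DMSO and 0.847 with GNF5). RRM1 followed TYMS with DMSO (74.8 with DMSO and 47.4 with GNF5), and IMPDH2 was the second with GNF5 (52.4 with DMSO and 65.9 with GNF5). On this scale RRM2 (20.4 with DMSO and 6.60 with GNF5) lay near UCK2 with DMSO and near PFAS with GNF5. UCK2 had 20.7 with DMSO and 19.2 with GNF5, and PFAS had 8.87 with DMSO and 7.03 with GNF5. The exon length used for RRM2, 9155 bases, includes exons of rare transcripts, so its place is uncertain. In CPM RRM2 had 187 with DMSO and 60.5 with GNF5, where UCK2 had 144 with DMSO and 134 with GNF5. Within de novo pyrimidine synthesis CAD was the highest (13.5 with DMSO and 18.7 with GNF5) and DHODH the lowest (1.48 with DMSO and 2.09 with GNF5).

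**Figure D4:**
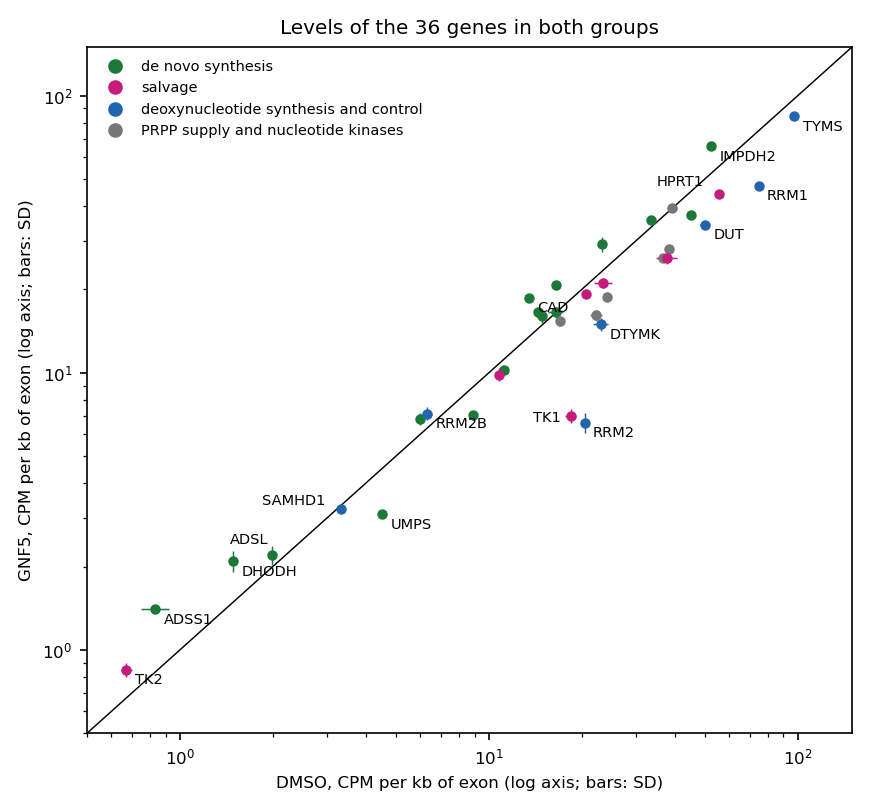
Mean level of each of the 36 genes with DMSO and with GNF5, in CPM per kilobase of exon on log axes, with bars of 1 SD over 3 libraries and a line of equal levels. RRM2 and TK1 lie farthest below the line, ADSS1 farthest above it, and TYMS is the highest in both groups.

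The rest of the nucleotide pathway, 80 genes in 4 lists of which 69 could be tested, was mixed, with 24 higher and 31 lower (median log2 fold change -0.09). Of these 69 genes 79.7% were called, against 61.6% of all genes tested, of which 31.0% rose and 30.7% fell. Their median log2 CPM was 4.75, against 3.41 over all genes tested. Among 16 tested genes of folate supply, which provides carbon units for purine rings and thymidylate, 4 rose and 6 fell. ALDH1L2 and MTHFD1L, mitochondrial enzymes that process formyl-tetrahydrofolate, rose (log2 fold change 3.01 ± 0.0946 and 1.43 ± 0.0570).

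Among 16 other kinases of nucleotides and nucleosides tested, 5 rose and 11 fell, where 31.0% and 30.7% of all genes tested did. AK4, a mitochondrial adenylate kinase, fell from 12.8 ± 1.69 to 3.89 ± 0.569 CPM (log2 fold change -1.71 ± 0.107). Among 30 genes of breakdown and of cleaning the nucleotide pool, 12 rose and 12 fell. UPP1, uridine phosphorylase, which releases uracil from uridine, rose from 3.06 ± 0.474 to 7.83 ± 0.400 CPM (log2 fold change 1.35 ± 0.112). Of 7 tested transporters of nucleosides and nucleotides 3 rose and 2 fell, and none changed by as much as 2-fold.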

How the data were processed

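RNA of NCI-H69 cells was sequenced as 3 DMSO and 3 GNF5 libraries, grouped by their titles. Per the file headers, the deposited counts are unnormalised: the authors counted paired reads with featureCounts 1.6.1, reverse-stranded, over exons by gene, with the Ensembl 101 annotation of GRCh38 and default options, which leave out multi-mapped reads and reads over several genes. In contrast, the submitters' processing notes list GRCh37 and, as tools, HTSeq, STAR, DESeq2 and Trim Galore, so the build used for alignment is uncertain. Coordinates are those of the files.

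Counts were tested with edgeR 4.0.16 in R 4.3.3 (robust quasi-likelihood test, TMM, default expression filter, no covariate, Benjamini-Hochberg over 20734 genes). The standard error is the log2 fold change divided by the square root of F. The script was tested on simulated data. Depth was 46148701 to 60697602 counts per library. Chi-square per degree of freedom between replicates was 3.02 to 8, above sampling noise. Symbols came from a table holding 60401 of 60671 IDs. Promoters are RefSeq's (GRCh38.p14).

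Values by library are given for genes changed at least 1.5-fold, the highest per length in each step, and pairs of the same step, with some others. Genes of other lists are named at 2-fold and a mean log2 CPM of 1 or more, and some genes of these lists are not reported here by name. The members, lists and pairs were chosen with earlier results of these data known. Alternatives were DESeq2 1.42.0, 2 other scalings, 2 other filters, the replicate number as a block, a test against 1.5-fold, and leaving out each library.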

Additional observations from a re-analysis of the deposited data

How the results depend on the processing

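Of 432 recomputed values for single genes (12 settings for each of 36 genes, the test against a 1.5-fold change apart), 414 kept their side of the threshold, and 31 genes kept it in every one of these settings. The 33 called genes kept their direction throughout, while PPAT (-0.04 to 0.04) and NME2 (-0.03 to 0.03), which were not called, changed sign between settings. The other 18 values are lost calls of GART, ADSL, GMPS, UCK1 and DCK, given in the report. Against a 1.5-fold change, glmTreat called 1240 genes higher and 1560 lower, and among the 36 genes 0 higher and 3 lower (RRM2, RRM1 and TK1), with 1 and 3 at an unadjusted p under 0.05. By class these were 0 and 0 of the de novo genes (1 and 0 unadjusted), 0 and 1 of the salvage genes (0 and 1) and 0 and 2 of the deoxynucleotide genes (0 and 2), while DESeq2 with a 1.5-fold size limit gave 1 higher and 4 lower of the 36. Among the other nucleotide pathway genes the same test called 4 higher and 5 lower. A stricter test gives fewer calls by construction.

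The medians of the classes moved by more than the spread between replicates in some settings but kept their sign. With upper-quartile scaling they were -0.16 for the 36 genes, 0.14 for de novo and -0.57 for deoxynucleotide genes, and the stricter filter gave -0.15 for the 36. Leaving out each library in turn gave medians of -0.15 to -0.12 for the 36, 0.12 to 0.21 for de novo, -0.21 to -0.13 for salvage and -0.59 to -0.53 for deoxynucleotide genes, with 10 to 12 of the 36 higher and 18 to 20 lower. The ratio of UCK2 to UCK1, a log2 change of 0.05, ranged from -0.011 to 0.10 when 1 library was left out, and reversed without DMSO replicate 1 (-0.011).

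No pairing by the replicate numbers in the titles was detected: same-numbered libraries correlated at -0.0157, 0.0159 and 0.00082 in their deviations from the group means. With 3 libraries per group, these values cannot show whether the libraries were cultured or prepared as pairs. With the replicate block 6279 genes were higher and 6196 lower, and the 36 genes again gave 13 and 20. Depth limits the least expressed of the genes most, and TK2 and ADSS1 had the largest standard errors of the 36.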
